A study of Mus musculus with 9 samples.

Results

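The 9 genes described here encode core enzymes of pyruvate dehydrogenase and of the tricarboxylic acid (TCA) cycle in the mitochondrial matrix. They were chosen by name, as Pdha1, Pdhb, Cs, Idh2, Idh3a, Ogdh, Sucla2, Fh1 and Mdh2, out of 35071 genes, and no measured value entered the rule, although earlier results of these data were known when they were chosen. The RNA came from whole subcutaneous fat of C57BL/6 mice at an age of 24 weeks. WT, Hete KO and Homo KO, the 3 genotype groups, had 3 libraries each, and the title describes a knockout of AGO1 in endothelial cells beside wild-type littermates. AGO1 is an Argonaute protein, which binds small RNAs and represses their target transcripts. The sources used here do not give the promoter that drives the deletion, the targeted allele, or the sex and litter of the animals. The stated purpose was to look for molecular changes behind a metabolic phenotype of the knockout mice. No label says which libraries share a litter or a preparation, so p-values measure only the spread between these samples.

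Pyruvate dehydrogenase turns pyruvate from glycolysis into acetyl-CoA. Its E1 component is a tetramer of the products of Pdha1 and Pdhb, and kinases of the Pdk family switch it off by phosphorylating the Pdha1 product. Citrate synthase (Cs) joins acetyl-CoA to oxaloacetate, and the isocitrate dehydrogenases, the oxoglutarate dehydrogenase E1 enzyme (Ogdh), succinyl-CoA ligase, fumarase (Fh1) and malate dehydrogenase (Mdh2) carry the carbon back to oxaloacetate. In fat cells the cycle feeds respiration and also exports citrate, from which fatty acids are made.

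Pdha1, Pdhb and Idh2 had the highest means in the knockout groups relative to WT among the 9, and the stretch before the start of each is shown for that reason. The sequences are from RefSeq (GRCm38.p6), on the minus strand, and were trimmed to lie outside the annotated span of the gene itself. Overlap with other genes was not checked. Pdha1 lies at chrX:160138431-160138680, Pdhb at chr14:8173026-8173242 and Idh2 at chr7:80115393-80115600. Capitals mark CCAAT (the motif of NF-Y, here as its reverse complement ATTGG) and GGGCGG (the motif of Sp1), searched on both strands.
Pdha1: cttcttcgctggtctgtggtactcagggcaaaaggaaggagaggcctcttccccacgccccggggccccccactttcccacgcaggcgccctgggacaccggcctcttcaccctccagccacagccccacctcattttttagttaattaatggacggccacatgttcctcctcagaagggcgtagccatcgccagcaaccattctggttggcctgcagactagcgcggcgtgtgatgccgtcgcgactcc
Pdhb: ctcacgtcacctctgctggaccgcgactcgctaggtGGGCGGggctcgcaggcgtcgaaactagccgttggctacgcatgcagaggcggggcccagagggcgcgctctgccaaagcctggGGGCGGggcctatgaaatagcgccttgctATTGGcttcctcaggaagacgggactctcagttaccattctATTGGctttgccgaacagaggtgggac
Idh2: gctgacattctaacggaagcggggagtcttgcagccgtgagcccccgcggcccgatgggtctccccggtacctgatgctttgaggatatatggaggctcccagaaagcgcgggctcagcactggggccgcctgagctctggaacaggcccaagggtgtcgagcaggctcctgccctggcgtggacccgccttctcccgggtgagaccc
The Pdhb stretch of 217 bases held 2 CCAAT and 2 GGGCGG matches, while the 250 bases of Pdha1 and the 208 bases of Idh2 held neither. AAGGTCA, to which ERR receptors bind, was in none of the 3 stretches. Over windows from 250 bases before to 50 bases after a start, 8 of the 9 genes had an entry, and Idh3a had none. CCAAT was in the windows of 5 of the 8 genes (Cs, Fh1, Idh2, Ogdh and Pdhb) and in 37.4% of all 32851 windows. GGGCGG was in 7 of the 8, all but Pdha1, and in 35.7% of all windows. AAGGTCA was in the window of Ogdh and in 4.72% of all windows.

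The libraries held 20843427 to 28252001 estimated counts, and each of the 9 genes had between 1097 and 12504 counts in every library, so all passed the filter on low counts. Adipocyte markers took 1.705 to 2.372% of the counts in every library. Counts are given as CPM, each gene's count relative to its library's total after edgeR's TMM scaling. Ago1 had 69.9, 63.8 and 63.4 CPM in the WT libraries, 51.2, 59.7 and 60.1 CPM in those of Hete KO, and 62.2, 58.6 and 25.8 CPM in those of Homo KO. Its log2 fold change of both KO groups against WT was -0.32 (adjusted p = 0.429, edgeR). In whole tissue Ago1 RNA of all cell types is measured together, and its endothelial part was not measured separately. The 10 endothelial markers took 0.0682 to 0.1195% of the counts. Skeletal muscle genes (18 on the list, none at 0 in any library) took 3.038% in Hete KO 2, 1.182% in WT 1 and 1.112% in WT 2, against 0.003776 to 0.1417% in the other 6. Y-linked RNA was present in all 9 libraries, which bears on Pdha1, an X-linked gene. In whole tissue, fewer cells of a type and less RNA per cell cannot be told apart.

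Levels of different genes are compared per transcript length, as TPM, a transcript count relative to all transcripts of the library. Idh3a, a catalytic subunit of the NAD-dependent isocitrate dehydrogenase, had the highest mean at 349.9 ± 31.9 TPM (SD over all 9 libraries). Mdh2 followed at 332.7 ± 41.1 TPM, and Idh3a was above it in 6 of 9 libraries, so their order was not fixed. Pdha1 at 193.1 ± 31.3 TPM was above Cs (167.9 ± 14.9) in 7 of 9 libraries, and Cs was above Ogdh (136.0 ± 16.3) in 9 of 9. Idh2, at 117.6 ± 26.1 TPM, was above Sucla2 (98.5 ± 6.51) in 7 of 9. Fh1, at 75.4 ± 14.6 TPM, was above Pdhb (68.1 ± 13.2) in 5 of 9, so the lowest places were not distinct either. The mean level of Pdhb was thus well below that of Pdha1, although their products form the same tetramer.

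Most Idh3a signal was assigned to transcripts that are not annotated as protein coding. Transcripts annotated as protein coding held between 13.0 and 26.1% of the Idh3a TPM, with a median of 19.2%. Retained-intron transcripts held 42.57 to 68.11% and those subject to nonsense-mediated decay 18.89 to 39.22%. Counted by transcripts annotated as coding alone, Idh3a had a mean of 66.98 TPM and ranked 7th of the 9, and Mdh2 ranked first at 206.4 TPM. That place of Mdh2 rests on the annotation. A coding transcript of 648 bases held 42.08 to 55.89% of the Mdh2 TPM over the libraries. The coding transcript of 1456 bases held 0.27 to 18.67%. Mdh2 also held 25.88 to 39.75% of its TPM in transcripts subject to nonsense-mediated decay. Coding transcripts made up at least 94.07% of the TPM of Pdha1, 97.86% of Cs and 97.43% of Ogdh in every library. In Pdhb the coding share ran from 64.75 to 85.8%, in Sucla2 from 77.53 to 93.28% and in Fh1 from 69.82 to 95.3%. A coding transcript of 542 bases held 23.45 to 44.41% of the Fh1 TPM. Whether such short coding transcripts encode a whole enzyme was not tested. Retained-intron transcripts share sequence with pre-mRNA, and the estimates split reads between overlapping transcripts, so these shares are less firm than the gene totals. The ranges of the WT and the 6 knockout libraries overlapped for every class of every gene.

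**Figure D1:**
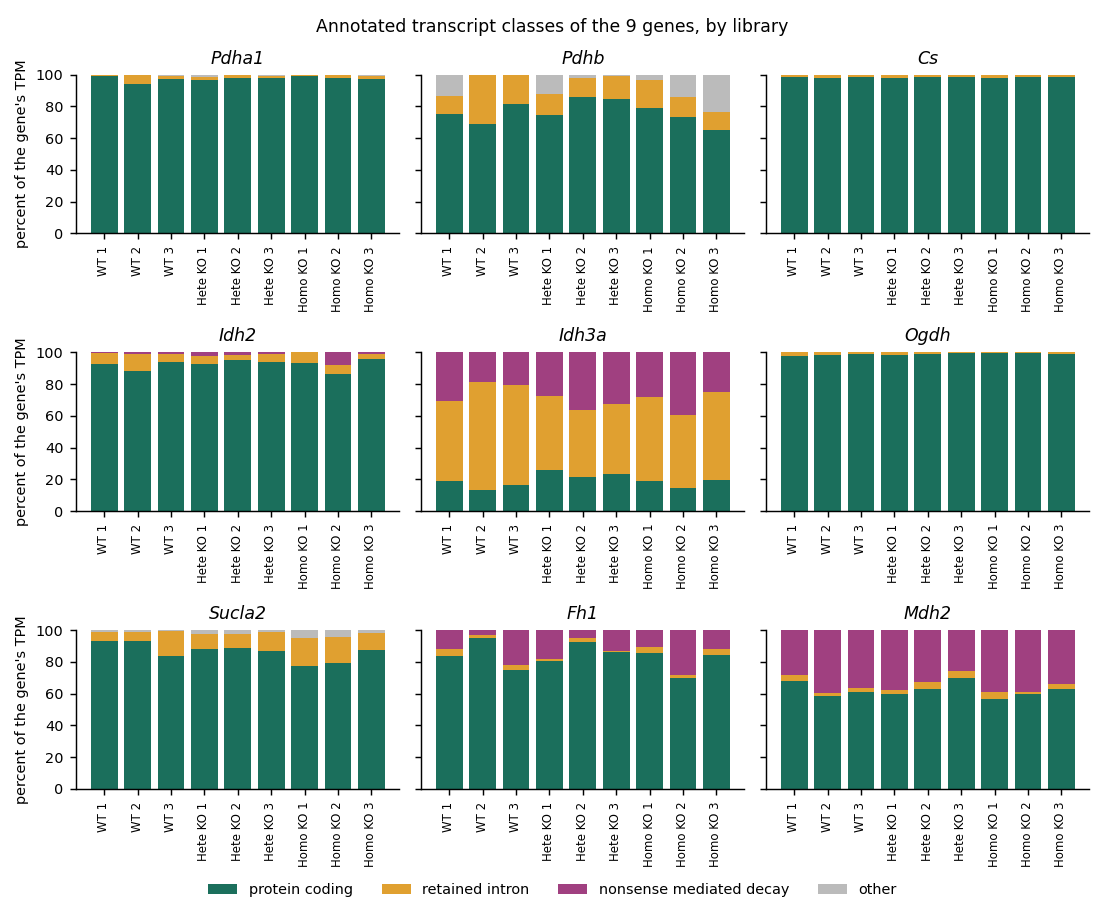
Share of each gene's TPM (percent, y axis) in each annotated transcript class, stacked, for the 9 libraries (x axis). The coding share of Idh3a stays between 13.0 and 26.1%, while Cs and Ogdh are nearly all coding.

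Pdha1 (mm10, chrX:160122209-160138413, minus strand), the E1 alpha subunit that carries the regulatory phosphorylation sites, was at 311, 280.3 and 309.6 CPM in WT. It was at 389.8, 475 and 398 CPM in Hete KO, and at 298, 379.7 and 418 CPM in Homo KO. All 3 Hete KO libraries lay above all WT libraries, whereas Homo KO 1 lay within the WT range. The WT mean was 300.2 ± 17.2 CPM, that of Hete KO 421 ± 46.9 and that of Homo KO 365 ± 61.5 (SD, n = 3). The log2 fold change was 0.49 ± 0.145 (SE) in Hete KO against WT (edgeR quasi-likelihood test, adjusted p = 0.107), the smallest adjusted p of the 9 genes in any comparison. It was 0.28 ± 0.145 in Homo KO (adjusted p = 0.360) and 0.39 ± 0.127 for both KO groups (adjusted p = 0.117), so none passed 0.05 in edgeR. DESeq2 did call Pdha1, at adjusted p = 0.0193 in Hete KO and 0.0361 in both KO groups, where it called 1610 and 1788 of 25436 genes. Pdha1 overlaps Map3k15 on the opposite strand, and the strand setting of the counting is not stated. Map3k15 had 99.9 to 271.2 counts per library, where Pdha1 itself had at least 6578.

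Pdhb (chr14:8165996-8173025, minus strand), the E1 beta subunit, had 53.4, 48.9 and 51.6 CPM in the WT libraries, 68.0, 70.1 and 59.9 CPM in those of Hete KO, and 49.7, 61.2 and 72.9 CPM in those of Homo KO. The pattern over the groups was that of Pdha1: Hete KO lay wholly above WT, and Homo KO 1 fell among the WT libraries. The log2 fold change was 0.36 ± 0.138 in Hete KO (SE; edgeR's adjusted p was 0.166), 0.26 ± 0.138 in Homo KO (0.384) and 0.31 ± 0.121 in both KO groups (0.168). None of these passed the test. The ratio of Pdha1 to Pdhb, taken within each library, averaged 5.85 ± 0.137 in WT, 6.38 ± 0.567 for Hete KO and 5.98 ± 0.236 for Homo KO (SD, n = 3), and the groups overlapped.

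**Figure D2:**
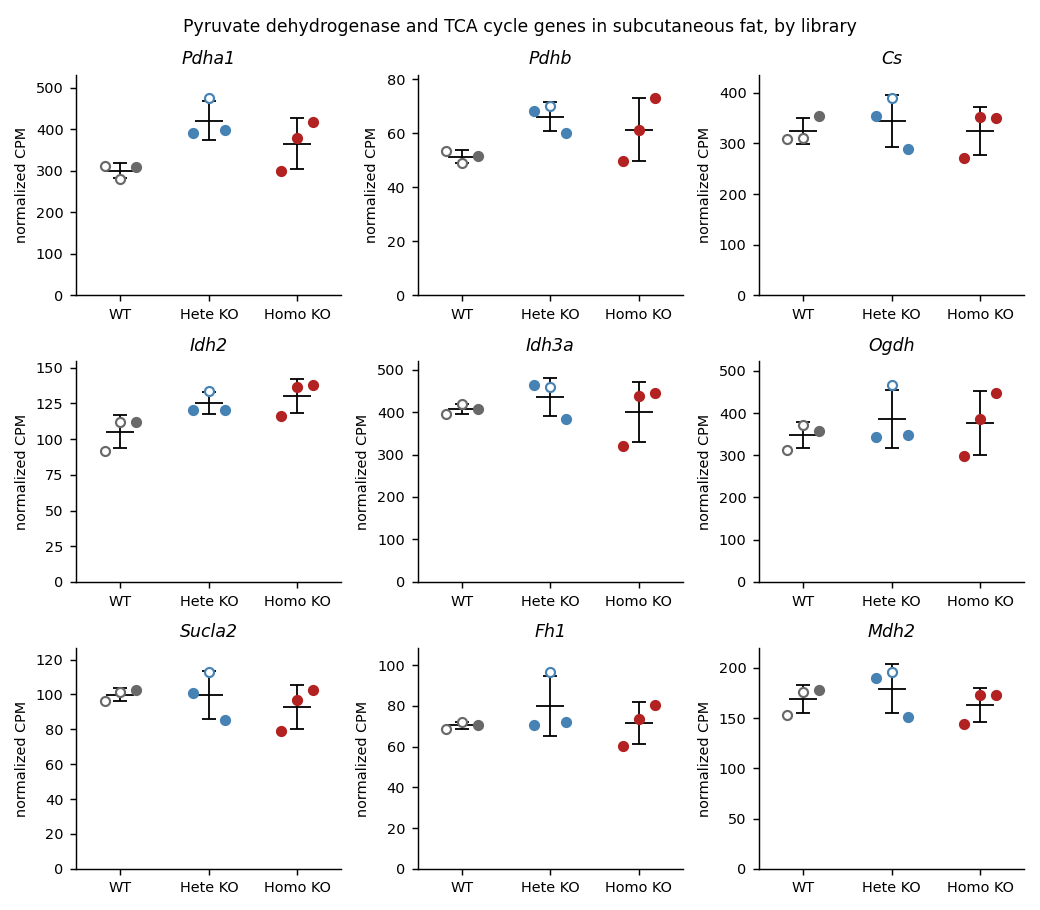
Normalized CPM (y axis) of the 9 genes in each library of the 3 groups (x axis), with group mean and SD as bars. Open points are the libraries with over 1% skeletal muscle transcripts. Idh2 is the only panel in which all 6 knockout libraries lie above all WT libraries.

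Idh2 (chr7:80094846-80115392, minus strand), the NADP-dependent mitochondrial isocitrate dehydrogenase, which supplies NADPH, had 92.0, 112 and 112 CPM in WT. It had 120.7, 134 and 120.3 CPM in Hete KO and 116, 136 and 138 CPM in Homo KO. All 6 knockout libraries lay above all 3 WT libraries, by a small margin at Homo KO 1. The log2 fold change was 0.25 ± 0.117 in Hete KO (SE; edgeR's adjusted p was 0.255), 0.31 ± 0.117 in Homo KO (0.252) and 0.28 ± 0.102 in both KO groups (0.151), none past the test. In TPM the groups were also apart, at 92.8 to 107 in WT and 113 to 182.7 in the knockouts. The highest of these, Homo KO 2, came with an unusual transcript assignment. A short transcript of 392 bases, Idh2-207, held 28.46% of its Idh2 TPM and 0% in the other 8 libraries. By CPM the same library was at 136, close to Homo KO 3.

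Cs (chr10:128337734-128362479, plus strand), often used as a marker of mitochondrial content, had 308, 312 and 355 CPM in the WT libraries, 355, 389.8 and 289 CPM in those of Hete KO, and 271, 353 and 351 CPM in those of Homo KO. The 3 groups overlapped, and the log2 fold change of both KO groups against WT was 0.04 ± 0.130 (SE; edgeR's adjusted p was 0.874). Idh3a (chr9:54586334-54604661, plus strand) had 395, 418 and 406 CPM in the WT libraries, 464, 459.8 and 384 CPM in those of Hete KO, and 319.8, 437 and 444 CPM in those of Homo KO. Its WT libraries were close together and lay inside the range of both KO groups, with a log2 fold change of 0.04 ± 0.126 (adjusted p = 0.882). Ogdh (chr11:6291633-6356642, plus strand), the E1 enzyme of the oxoglutarate dehydrogenase complex, had 313, 372 and 357 CPM in the WT libraries, 344, 466 and 347 CPM in those of Hete KO, and 298, 386 and 447 CPM in those of Homo KO. The groups overlapped again, at a log2 fold change of 0.14 ± 0.153 (adjusted p = 0.630).

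Sucla2 (chr14:73525319-73596142, plus strand), the ADP-forming beta subunit of succinyl-CoA ligase, was the 1 gene of the 9 with a negative log2 fold change in both KO groups against WT. It had 96.0, 101 and 102 CPM in the WT libraries, 100.7, 113 and 85.5 CPM in those of Hete KO, and 78.8, 97.0 and 103 CPM in those of Homo KO, and its log2 fold change was -0.05 ± 0.114 (SE; edgeR's adjusted p was 0.809). The lowest values were Homo KO 1 and Hete KO 3, and the groups overlapped. Fh1 (chr1:175600374-175625635, minus strand), which hydrates fumarate to malate, had 68.6, 72.3 and 70.5 CPM in the WT libraries, 70.4, 96.7 and 72.2 CPM in those of Hete KO, and 60.4, 73.8 and 80.5 CPM in those of Homo KO. Hete KO 2 stood highest, the groups overlapped, and the log2 fold change was 0.10 ± 0.127 (adjusted p = 0.666). Mdh2 (chr5:135778480-135790398, plus strand), which closes the cycle by making oxaloacetate, had 153, 176 and 178 CPM in the WT libraries, 190.3, 196 and 151 CPM in those of Hete KO, and 144, 173 and 173 CPM in those of Homo KO. WT and both KO groups overlapped, at 0.02 ± 0.115 (adjusted p = 0.946).

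**Figure D3:**
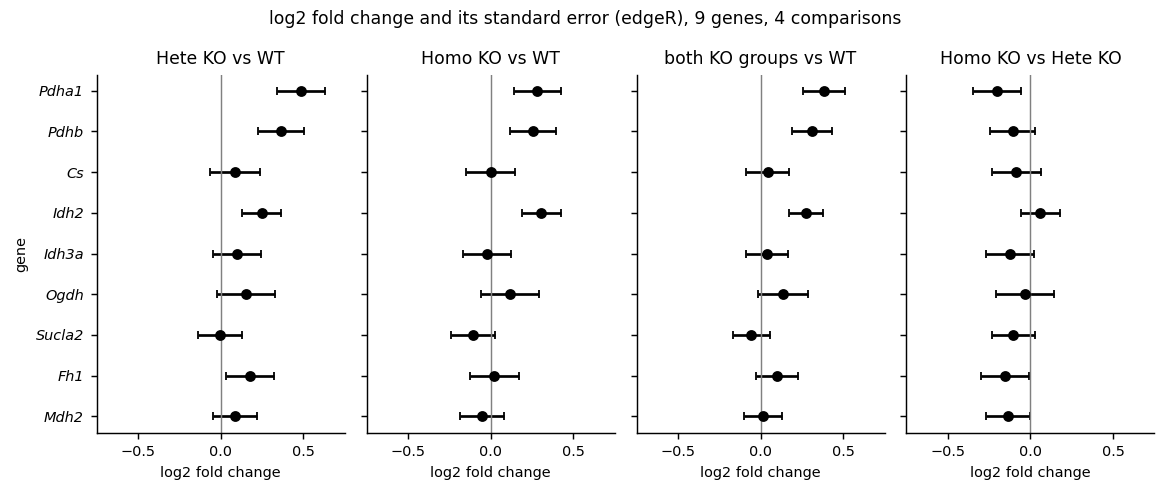
log2 fold change (x axis) with its standard error for each of the 9 genes (y axis) in 4 comparisons. Pdha1, Pdhb and Idh2 lie to the right of 0 in each comparison with WT, from 0.25 to 0.49, and none passed an adjusted p of 0.05 in edgeR.

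In Hete KO against WT edgeR called 0 of the 9 genes, where 75 of 17968 genes (0.417%) were called. At an unadjusted p under 0.05, 2 of the 9 were higher (Pdha1 and Pdhb), against 9.71% of all genes, and 3 of the 9 lay wholly above WT (Pdha1, Pdhb and Idh2), against 12.6%. In Homo KO against WT 0 of 9 were called, with 0% of all genes. Only Idh2 was higher at an unadjusted p under 0.05 (7.75% of all genes) and lay wholly above WT (10.9%). In both KO groups against WT 0 of 9 were called, with 2.34% of all genes called. Pdha1, Pdhb and Idh2 were higher at an unadjusted p under 0.05 (10.2% of all genes), and Idh2 alone did not overlap (6.37%). In Homo KO against Hete KO 0 of 9 were called, with 0% of all genes, and 0 of 9 had an unadjusted p under 0.05 (5.44% of all genes). The median log2 fold change of the 9 genes was 0.15 in Hete KO, 0.02 in Homo KO and 0.10 in both KO groups against WT, beside medians over all genes of 0.02, -0.01 and -0.01. In Homo KO against Hete KO it was -0.11, beside 0.00 over all genes. The comparisons with WT share the WT libraries. DESeq2 called 1 of the 9 (Pdha1) in Hete KO and in both KO groups and none in the other comparisons. Of 25436 genes it called 1610 in Hete KO, 633 in Homo KO and 1788 in both KO groups. Its calls of other genes below stand beside these totals. limma on log2 TPM called none of the 9 in any comparison.

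Single libraries weighed on these values. Hete KO 2, which had the most muscle RNA, was the highest library for 6 of the 9 genes, and Homo KO 1 was the lowest for 6. The mean log2 level of the 9 genes, centred per gene, was -0.15, -0.07 and -0.04 in the WT libraries, 0.08, 0.27 and -0.06 in those of Hete KO, and -0.26, 0.07 and 0.16 in those of Homo KO. Without the 3 libraries over 1% muscle RNA, which leaves WT 3 as the single WT library, the median of the 9 genes in Hete KO against WT was 0.03 in place of 0.15, and in both KO groups 0.02 in place of 0.10. In that setting the log2 fold change of both KO groups was 0.30 for Pdha1, 0.29 for Pdhb, 0.17 for Idh2 and -0.13 for Cs. Homo KO 1 held 0.02651% muscle RNA, and without it the Homo KO log2 fold change against WT was 0.42 for Pdha1 and 0.40 for Pdhb. Both were the highest values among the 22 alternative settings of that comparison, in which the lowest were 0.14 for Pdha1 and 0.06 for Pdhb. The median of the 9 genes in Homo KO against WT was 0.14 without Homo KO 1, with 9 above 0. Without Homo KO 3 that median was -0.05, with 3 above 0. Progenitor and fibroblast genes took 0.4246 to 0.5932% of the counts in WT and 0.1704 to 0.39% in the knockouts, and 2 of these 8 genes fell in both KO groups, where 1.52% of all genes were called lower. Macrophage genes took 0.0797 to 0.132% in WT and 0.0370 to 0.0918% in the knockouts, and 3 of 10 fell in the same contrast. Of the 10 adipocyte markers, 8 were above 0 in that contrast, beside 49.5% of all genes. Their median was 0.32 beside the 0.10 of the 9 enzymes, and edgeR called 0. At an unadjusted p under 0.05, 3 of the 10 were higher and 1 lower, beside 10.2 and 12.3% of all genes. Thermogenic adipocyte genes took 0.02587% in WT 2, 0.01136% in Hete KO 2 and at most 0.005897% elsewhere. Of these 7 genes, 3 were above 0 and 4 below in both KO groups, with a median of -0.91, and edgeR called 0. At an unadjusted p under 0.05, 1 was higher and 3 lower, beside 10.2 and 12.3% of all genes. Ppargc1a, described below, is 1 of the 7 and had their highest value, at 1.0. Liver genes other than Hp took 0.1456% in WT 2 and 0.1302% in WT 3, against at most 0.02125% in the other libraries, and 5 of the 18 liver genes fell in both KO groups. Without WT 2 and WT 3, a setting chosen after the data were seen, WT 1 is the single WT library and is also the lowest of all libraries for Idh2. The median of the 9 genes in both KO groups was 0.16 and the value of Idh2 0.47, each a contrast with that library. With muscle and liver scores as covariates, the value of Pdhb in both KO groups was 0.15 in place of 0.31. The median of the 9 genes in that setting was 0.11 in place of 0.10, and 8 of the 9 were above 0 in either case. The part of these cell type differences in the values of the 9 genes was not tested.

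Ratios between the 9 genes within a library are free of the scaling between libraries. Pdha1 over Cs was 1.01, 0.8998 and 0.871 in the WT libraries, 1.098, 1.22 and 1.38 in those of Hete KO, and 1.10, 1.08 and 1.19 in those of Homo KO. All 6 knockout libraries lay above all WT libraries, Homo KO 1 included, as was the case for 3.31% of all genes set over Cs. Pdha1 over Idh3a was 0.671 to 0.786 in WT and 0.841 to 1.04 in the knockouts, a separation that 2.82% of all genes had over Idh3a. Pdha1 over Sucla2 was 2.77 to 3.24 in WT and 3.78 to 4.65 in the knockouts, beside 5.89% of all genes over Sucla2. Idh2 over Sucla2 was 0.958, 1.108 and 1.09 in WT, and 1.19 to 1.48 in the knockouts. Of the 36 pairs of the 9 genes, 8 were separated in this way by CPM, 6 by TPM and 5 by both. These 5 were Pdha1 over Cs, over Idh3a and over Sucla2, Pdhb over Idh3a, and Idh2 over Sucla2. Some gaps were very narrow by TPM. Pdha1 over Sucla2 was 1.791 in WT 1 and 1.807 in Homo KO 1. Pdhb over Idh3a was 0.1891 in WT 1 and 0.1912 in Hete KO 2. The 36 pairs reuse the same 9 genes, and the share over all pairs of genes was not computed. Whether these counts are unusual therefore cannot be told. The ratios were chosen for display after their values were seen and are given with no test.

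**Figure D4:**
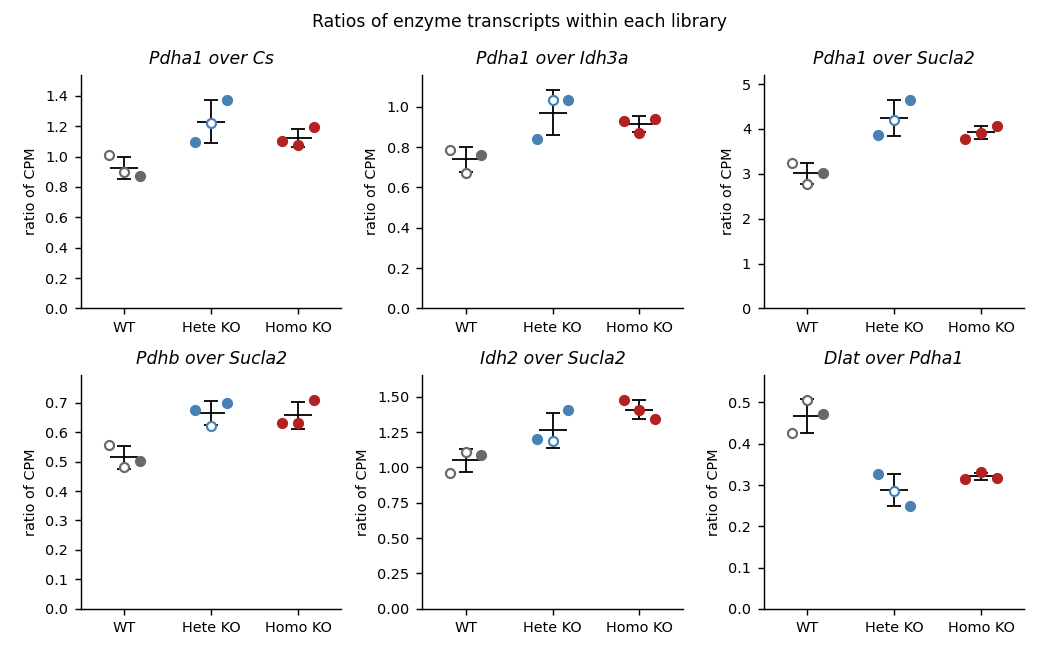
Ratio of CPM within each library (y axis) for 6 gene pairs in the 3 groups (x axis), with group mean and SD as bars and libraries over 1% muscle transcripts as open points. In all 6 panels the WT libraries are apart from the 6 knockout libraries, with Dlat over Pdha1 lower in the knockouts. By TPM, not shown, Pdhb over Sucla2 overlaps.

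The other subunits of the complex, and the carrier that brings pyruvate to it, were measured beside E1. Dlat, the E2 core of the complex, had 132, 142 and 146 CPM in the WT libraries, 128, 135 and 99.3 CPM in those of Hete KO, and 93.4, 126 and 133 CPM in those of Homo KO. Homo KO 1 and Hete KO 3 were lowest and the groups overlapped, at a log2 fold change of -0.23 ± 0.134 (SE) in both KO groups (edgeR adjusted p = 0.328), and its sign turned to 0.07 with an offset for transcript length. Dlat over Pdha1 was 0.425, 0.506 and 0.472 in the WT libraries, 0.327, 0.285 and 0.250 in those of Hete KO, and 0.314, 0.331 and 0.318 in those of Homo KO. By CPM the WT ratios all lay above the knockout ratios, and 15.6% of all genes set over Pdha1 did the same. By TPM the gap was very narrow, at 0.5397 to 0.6193 in WT and 0.3484 to 0.5383 in the knockouts. Pdhx, which binds the E3 enzyme to the core, was at -0.09 (adjusted p = 0.651), and Dld, the E3 enzyme, at 0.18 (adjusted p = 0.416). Mpc1, a subunit of the mitochondrial pyruvate carrier, was at 0.59 ± 0.200 in both KO groups (adjusted p = 0.125). WT 2 was the lowest library for it, and without WT 2 the value was 0.38, and 0.34 in place of 0.55 in Homo KO. With muscle and liver scores as covariates it was 0.17. DESeq2 called Mpc1 in both KO groups (adjusted p = 0.0306).

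Of 45 other genes of pyruvate and TCA cycle metabolism, all tested, 1 rose in both KO groups against WT and none fell, where 2.34% of all genes were called. In each single comparison 0 of the 45 were called by edgeR. At an unadjusted p under 0.05, 9 of the 45 were higher and 1 lower in both KO groups, beside 10.2 and 12.3% of all genes. In Hete KO 11 were higher and 1 lower, beside 9.71 and 12.1% of all genes. In Homo KO 5 were higher and 2 lower, beside 7.75 and 8.68%. In Homo KO against Hete KO 0 were higher and 1 lower, the latter beside 3.19%. In both KO groups 4 of the 45 lay wholly above WT and 1 wholly below, beside 6.37 and 6.06% of all genes. The gene that rose was Pck1, the cytosolic phosphoenolpyruvate carboxykinase, which draws oxaloacetate out of the cycle for glycerol synthesis in fat. It had 635, 1367 and 1468 CPM in the WT libraries, 2352, 4071 and 3273 CPM in those of Hete KO, and 2575, 3987 and 3868 CPM in those of Homo KO. Every knockout library was above every WT library, at a log2 fold change of 1.53 ± 0.298 (SE; the adjusted p was 0.0411). The call ended in 13 of 21 other settings, among them 7 of the 9 in which 1 library was left out. The direction held in all 21. DESeq2 called Pck1 in both KO groups (adjusted p = 6.52e-08), in Hete KO (1.79e-05) and in Homo KO (6.97e-06). In Hete KO edgeR also called it with no filter (0.0449), with replicate number as a block (0.0315) and without Hete KO 1 (0.0311). These settings called 258, 248 and 958 genes in Hete KO, against 75 without the change. Without the muscle-rich libraries the log2 fold change of both KO groups was 1.10. WT 3 is then the single WT library and is assumed to vary like the other groups.

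The 7 genes of kinases and phosphatases of the E1 enzyme, 1 phosphatase regulator included, were all above 0 in the joint contrast of both KO groups with WT, as were 49.5% of all genes, and edgeR called 0 of 7. In Homo KO alone 5 of the 7 were above 0, and Pdk2 and Pdk4 were below. Pdk1, a kinase that inactivates the complex, had 19.4, 21.2 and 24.9 CPM in the WT libraries, 26.3, 39.5 and 28.8 CPM in those of Hete KO, and 26.9, 36.3 and 31.7 CPM in those of Homo KO. Pdp2, a phosphatase that reactivates it, had 18.2, 18.9 and 22.8 CPM in the WT libraries, 25.1, 32.8 and 25.4 CPM in those of Hete KO, and 23.6, 30.3 and 34.4 CPM in those of Homo KO. Both genes, of opposite action, lay wholly above WT in the 6 knockout libraries, as did 6.37% of all genes. Their log2 fold changes were 0.53 ± 0.159 (SE; the adjusted p was 0.0944) and 0.52 ± 0.153 (adjusted p = 0.0936) in edgeR. DESeq2 called both in that contrast, at adjusted p = 0.0282 and 0.0313. Pdk4, the kinase induced by fasting, had 150.2, 154 and 56.0 CPM in the WT libraries, 81.3, 426 and 114 CPM in those of Hete KO, and 103, 109 and 118 CPM in those of Homo KO. Its 3 highest values were the 3 muscle-rich libraries, and its log2 fold change was 0.33 ± 0.495 (adjusted p = 0.725) with, and -0.22 without, Hete KO 2.

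Among the 10 other TCA cycle genes edgeR called 0, and 8 were above 0 in both KO groups. Sdha, the flavoprotein of succinate dehydrogenase, had 179, 160 and 182 CPM in the WT libraries, 248, 295 and 230.1 CPM in those of Hete KO, and 197, 243 and 262 CPM in those of Homo KO. All 6 knockout libraries were above WT, with a log2 fold change of 0.50 ± 0.124 (SE; the adjusted p was 0.0629). DESeq2 called Sdha in both KO groups (adjusted p = 0.0037) and in Hete KO (0.00441). Sdhb, its iron-sulfur partner, was at 0.34 ± 0.150 with overlap (adjusted p = 0.218). Idh3g, a partner of Idh3a, was at 0.34 ± 0.122 (adjusted p = 0.139), where Idh3a itself was at 0.04. Suclg2, the GDP-forming counterpart of Sucla2, was at 0.27 ± 0.118 (adjusted p = 0.207), but at -0.02 with an offset for transcript length.

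**Figure D5:**
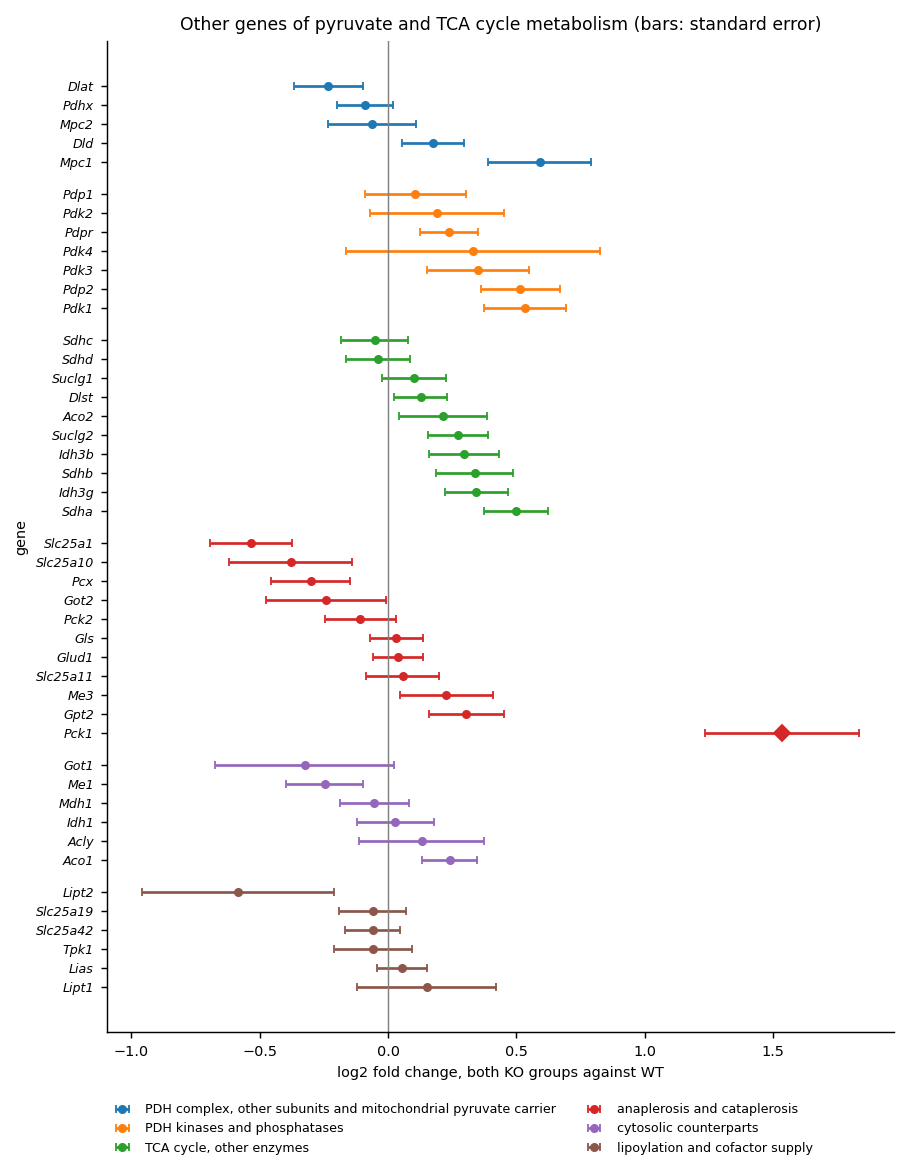
log2 fold change of both KO groups against WT (x axis, bars: standard error) for the 45 other genes of pyruvate and TCA cycle metabolism (y axis), coloured by group. The diamond marks Pck1 at 1.53, the 1 gene past an adjusted p of 0.05.

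Among the other 10 genes that feed the cycle or draw from it, edgeR called 0 in each comparison. Slc25a1, the citrate carrier that supplies cytosolic fatty acid synthesis, had 137, 159.8 and 185 CPM in the WT libraries, 135, 99.9 and 86.4 CPM in those of Hete KO, and 94.3, 127 and 122 CPM in those of Homo KO. All knockout values were below all WT values, narrowly at Hete KO 1, with a log2 fold change of -0.53 ± 0.160 (SE; edgeR's adjusted p was 0.0944). It was called by DESeq2 in both KO groups (adjusted p = 0.0206) and in Hete KO (0.031), and by edgeR in both contrasts when Hete KO 1 was left out (0.0395 and 0.0466). Leaving out that library gave 1095 and 958 genes called in these contrasts, against 421 and 75 with all libraries. Of the 6 cytosolic counterparts edgeR called 0, and Aco1 had the smallest p at 0.24 ± 0.107 (adjusted p = 0.219). Of the 6 lipoylation and cofactor genes it called 0, and their range was -0.58 to 0.15.

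Of 11 regulators of mitochondrial genes edgeR called 0 in each comparison. In both KO groups 7 were above 0 and 4 below. Of the 11, 2 lay wholly above WT (Ppargc1a and Gabpa) and 0 wholly below, where 6.37% of all genes lay wholly above. Ppargc1a, a coactivator of mitochondrial biogenesis, had 14.4, 11.1 and 10.1 CPM in the WT libraries, 19.3, 35.6 and 20.8 CPM in those of Hete KO, and 17.7, 22.3 and 26.9 CPM in those of Homo KO. The knockout libraries were all above WT, at a log2 fold change of 1.0 ± 0.233 (SE; the adjusted p was 0.0561). Ppargc1a was called in 3 of 21 other settings of that contrast, which were DESeq2 (adjusted p = 0.000647), edgeR with no filter (0.036) and edgeR without Hete KO 1 (0.0323). Those settings called 1788, 759 and 1095 genes in it, against 421. DESeq2 also called Ppargc1a in Hete KO (0.00144) and in Homo KO (0.024), as did edgeR in Hete KO without Hete KO 1 (0.0354). Gabpa, a subunit of the nuclear respiratory factor GABP, was at 0.36 ± 0.1005 without overlap (adjusted p = 0.0779, and 0.0314 in DESeq2 and 0.0461 in edgeR without WT 1), and Esrra, a nuclear receptor of mitochondrial genes, at -0.40 ± 0.189 with overlap (adjusted p = 0.246). The 13 mitochondrially encoded protein genes were all above 0 in both KO groups, with a median of 0.59 beside 0.10 for the 9 nuclear enzymes, and edgeR called 0 of 13. Their share of all counts was 3.097, 2.103 and 2.932% in WT and 3.527 to 4.245% in the knockouts.

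The genes whose profile over the 9 libraries lay nearest to the mean of the 9 enzymes, out of 9627 candidates with at least 10 CPM, were Dis3l, Foxk1 and Calm3. Their root mean square differences from it were 0.0457, 0.0509 and 0.0546 on the log2 scale. The likeness includes whatever the libraries share, such as muscle RNA in Hete KO 2.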

How the data were processed

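RNA of whole subcutaneous fat was sequenced in 9 libraries, 3 per genotype group. Per the file headers, the authors deposited estimated counts (expected counts, not normalized) and TPM for 113193 transcripts per library, beside each transcript's length. Per the submitters' processing notes the build was mm10, and the quantifier is not given in the sources used here. Transcripts were matched to genes with GENCODE M21 (GRCm38). Of them 111362 (98.38%) matched, and the 1831 others, with 0.581 to 1.059% of the counts, were left out. Counts were summed to 35071 genes and rounded, and 17968 genes passed edgeR's filterByExpr.

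R 4.3.3 with edgeR 4.0.16 (TMM, quasi-likelihood F-test, two-sided) fitted all libraries, with a coefficient for each of the 3 groups and 6 degrees of freedom left. P-values were adjusted by Benjamini-Hochberg over all tested genes at 0.05. limma 3.58.1 and DESeq2 1.42.0 served as alternatives, and Python 3.11.15 (pandas 2.3.3, numpy 2.4.6, matplotlib 3.10.9) for tables and figures. limma used log2 of TPM plus 0.5 or 0.1, computed from the deposited TPM. The comparisons were Homo KO, Hete KO and both KO groups against WT, and Homo KO against Hete KO. The test was tested on simulated data.

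The members and lists were chosen with earlier results of these data known. Named are the 9 genes, Ago1, up to 4 genes per list by smallest p with Pdk4 and Ppargc1a in any case, and the 3 nearest profiles. Alternatives were other normalizations, filters, a length offset, the compared groups only, the replicate block, leaving out libraries, and muscle and liver scores as covariates.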

Additional observations from a re-analysis of the deposited data

How the results depend on the processing

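The 9 genes kept a count of 0 called in edgeR and limma under each alternative, and DESeq2 called 1 in Hete KO and 1 in both KO groups. Pdha1, Pdhb and Idh2 kept a positive log2 fold change against WT in every alternative. For both KO groups their ranges were 0.27 to 0.46, 0.15 to 0.39 and 0.17 to 0.47.

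The number of all genes called varied far more. Of 25436 genes DESeq2 called 633 in Homo KO, 1610 in Hete KO, 1788 in both KO groups and 2 in Homo KO against Hete KO. With no filter there were 1, 258 and 759 in the comparisons with WT. The length offset gave 1 in Hete KO and 4 in both KO groups, and limma gave 0 in Hete KO and 12 (pseudocount 0.5) or 6 (0.1) in both. The compared groups only gave 7 in Homo KO and 0 in Hete KO. Without the muscle-rich libraries there were 41, 11 and 102, and with the covariates 0 in Hete KO and 1 in both KO groups. Without WT 2 and WT 3, chosen after seeing the data, there were 2, 1 and 2. Leaving out 1 library gave 0 to 153 in Homo KO, 0 to 958 in Hete KO and 2 to 1095 in both KO groups. The cause of these shifts was not tested. With the replicate block there were 248 in Hete KO and 487 in both KO groups, against 75 and 421 without it, and 0 of the 9 genes were called. Same-numbered libraries correlated at -0.0722 to 0.458 in their deviations from the group means, and not every library correlated best with its own number, so the numbers were not taken as pairs.

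The values whose sign turned were not called by edgeR in any of the comparisons named, and the cause was not tested. In both KO groups against WT the sign turned as follows. Idh3a was at -0.020 (the length offset), -0.018 (limma with pseudocount 0.5) and -0.018 (limma with 0.1). Suclg2 was at -0.020 (the length offset), -0.012 (limma with pseudocount 0.5) and -0.012 (limma with 0.1). Dlat was at 0.068 (the length offset), 0.060 (limma with pseudocount 0.5) and 0.060 (limma with 0.1). Cs was at -0.13 (without the muscle-rich libraries). Mdh2 was at -0.087 (without the muscle-rich libraries). Sucla2 was at 0.0036 (without WT 2 and WT 3). Leaving out 1 library gave -0.035 to 0.086 for Mdh2, -0.012 to 0.13 for Cs, -0.22 to 0.56 for Pdk4 and -0.11 to 0.014 for Sucla2. In Homo KO against WT the sign turned as follows. Cs was at -0.0023 (no filter), -0.027 (the length offset), -0.0067 (the compared groups only), -0.0068 (the replicate block), -0.012 (limma with pseudocount 0.5), -0.012 (limma with 0.1), -0.13 (without the muscle-rich libraries) and -0.040 (the covariates). Mdh2 was at 0.037 (the length offset), 0.048 (limma with pseudocount 0.5), 0.049 (limma with 0.1), 0.091 (without WT 2 and WT 3) and 0.018 (the covariates). Suclg2 was at -0.12 (the length offset), -0.10 (limma with pseudocount 0.5) and -0.10 (limma with 0.1). Dlat was at 0.038 (the length offset), 0.041 (limma with pseudocount 0.5) and 0.042 (limma with 0.1). Pdk4 was at 0.014 (the replicate block), 0.97 (without the muscle-rich libraries) and 0.86 (the covariates). Idh3a was at 0.018 (without WT 2 and WT 3). Mpc1 was at -0.058 (the covariates). Leaving out 1 library gave -0.062 to 0.13 for Cs, -0.46 to 0.097 for Pdk4, -0.094 to 0.13 for Idh3a, -0.18 to 0.011 for Sucla2, -0.11 to 0.045 for Mdh2, -0.014 to 0.27 for Ogdh and -0.061 to 0.14 for Fh1. In Hete KO against WT the sign turned as follows. Sucla2 was at 0.021 (upper-quartile normalization), 0.012 (the filter of 1 CPM in 3 libraries) and 0.055 (without WT 2 and WT 3). Dlat was at 0.098 (the length offset), 0.078 (limma with pseudocount 0.5) and 0.079 (limma with 0.1). Cs was at -0.13 (without the muscle-rich libraries). Ogdh was at -0.038 (without the muscle-rich libraries). Mdh2 was at -0.052 (without the muscle-rich libraries). Leaving out 1 library gave -0.11 to 0.12 for Sucla2, -0.020 to 0.22 for Cs, -0.015 to 0.25 for Ogdh and -0.31 to 1.2 for Pdk4. In Homo KO against Hete KO the sign turned as follows. Pdk1 was at -0.0076 (the filter of 1 CPM in 3 libraries) and -0.0061 (the compared groups only). Pdhb was at 0.0017 (the length offset). Sucla2 was at 0.0013 (the length offset), 0.023 (limma with pseudocount 0.5) and 0.023 (limma with 0.1). Cs was at 0.0064 (without the muscle-rich libraries). Ogdh was at 0.12 (without the muscle-rich libraries) and 0.018 (the covariates). Ppargc1a was at 0.15 (without the muscle-rich libraries) and 0.019 (the covariates). Pdk4 was at 0.16 (without the muscle-rich libraries) and 0.37 (the covariates). Dlat was at 0.042 (without the muscle-rich libraries). Slc25a1 was at -0.026 (the covariates). Leaving out 1 library gave -0.12 to 0.20 for Pdk1, -0.092 to 0.31 for Pck1, -0.21 to 0.023 for Cs, -0.19 to 0.13 for Ogdh, -0.21 to 0.00060 for Sucla2, -0.26 to 0.011 for Fh1, -0.35 to 0.16 for Ppargc1a, -1.32 to 0.17 for Pdk4, -0.18 to 0.091 for Dlat, -0.049 to 0.28 for Slc25a1, -0.26 to 0.015 for Pdhb, -0.22 to 0.0084 for Idh3a, -0.21 to 0.0047 for Suclg2, -0.26 to 0.087 for Mpc1 and -0.054 to 0.23 for Pdp2.

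The planned setting without libraries over 0.1% liver transcripts, Hp included, would remove all WT libraries and was not run against WT. For both KO groups against WT, the compared groups only are the same 9 libraries. With 3 libraries per group and SEs of 0.102 to 0.176 on the log2 scale, small differences were not detectable.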
